A study of Mus musculus with 6 samples.

Results

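The unfolded protein response genes described here are Ern1, Xbp1, Atf4, Ddit3, Hspa5, Hsp90b1, Calr, Pdia4, Sdf2l1 and Herpud1, which were taken by name as sensors, transcription factors and endoplasmic reticulum (ER) proteins of a cytokine-secreting cell. They are 10 of the 55394 genes measured. The symbol Ddit3 is carried by 2 entries, so the 10 genes match 11 entries. Levels are given in FPKM (mapped fragments per length of transcript, scaled to the size of the library), so levels of different genes can be compared per length.

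The libraries were made by SMART-seq from lung group 2 innate lymphoid cells (ILC2s), which secrete type 2 cytokines such as IL-5 and IL-13, and each library held 1000 sorted cells of wild type C57BL/6 neonates (C57BL/6J in the study's methods). The Abx group (3 libraries) came from pups whose dams drank ampicillin, metronidazole, neomycin and vancomycin from gestation day 10 to 14, and the Con group (3 libraries) from pups of control dams. The cells were sorted as CD45+ CD90.2+ CD25+ cells without T cell, B cell, NK cell, myeloid and erythroid surface markers. The pups' age and sex are not given for these libraries. It is also not stated whether the libraries of a group came from separate litters or from pooled lungs. The p-values therefore measure the spread between libraries, which may be technical. Xist, a transcript of female cells, was found in Con alone, and Y-linked Eif2s3y was higher in every Abx library than in any Con library. Treatment and sex of the cells thus cannot be told apart in the differences below.

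The ER folds the proteins that a cell secretes, and unfolded proteins there set off sensors in its membrane. The sensor IRE1α, encoded by Ern1, cuts Xbp1 mRNA so that it is spliced into the form that encodes the active factor. PERK, encoded by Eif2ak3, phosphorylates eIF2α, which slows translation in general and raises that of Atf4, and ATF6 is cut in the Golgi to release a transcription factor. XBP1 and ATF6 turn on ER chaperones and degradation genes, whereas ATF4 turns on amino acid genes and Ddit3, whose product CHOP is known for its role in cell death under lasting stress. Much of this control acts on splicing, translation and cleavage, which levels per gene do not show, and spliced and unspliced Xbp1 mRNA are not told apart in these values.

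Promoter windows of Hspa5, Hsp90b1, Calr and Herpud1 are shown because they carry letters through which the response is known to act, whereas those of the ER protein genes Pdia4 and Sdf2l1 held none of the letters searched. The ER stress response element (ERSE) was searched as CCAAT and CCACG with 9 bases between, ERSE-II as ATTGG and CCACG with 1 base between, the unfolded protein response element (UPRE) as TGACGTGG, and the site bound by ATF4 with C/EBP factors (CARE) as TGATGNAAN. Both strands of the 250 bases before each RefSeq start (GRCm38.p6) were read. ERSE stood in 3 of the 10 genes and in 0.113% of 32851 promoters, and ERSE-II stood in 1 of the 10 genes and in 0.0304% of promoters. CARE stood in 1 of the 10 genes and in 3.44% of promoters, and UPRE in 0 of the 10 genes and in 0.563% of promoters. Genes and motifs were both taken from what is known of this response. Matches in its known target genes are therefore no independent result, and the shares were not tested. None of these matches in the 10 genes overlapped another. The Hspa5 match lies inside the gene as GENCODE draws it, whose start is upstream of the RefSeq start. In the windows below, written 5′ to 3′ along the motif, the motif is in capitals with 5 bases on each side, and distances are counted back from the RefSeq start.
Hspa5, ERSE at 65 to 47 bases on the gene's strand, chr2:34772020-34772048: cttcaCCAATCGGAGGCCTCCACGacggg
Hsp90b1, ERSE at 212 to 194 bases on the gene's strand, chr10:86705633-86705661: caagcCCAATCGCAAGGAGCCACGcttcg
Hsp90b1, ERSE at 107 to 89 bases on the other strand, chr10:86705528-86705556: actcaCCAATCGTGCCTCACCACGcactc
Calr, ERSE at 162 to 144 bases on the other strand, chr8:84847070-84847098: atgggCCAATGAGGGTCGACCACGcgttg
Herpud1, ERSE-II at 52 to 42 bases on the gene's strand, chr8:94386372-94386392: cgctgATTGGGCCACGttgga
Herpud1, CARE at 113 to 105 bases on the other strand, chr8:94386311-94386329: cgggcTGATGCAACccgcc

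**Figure D1:**
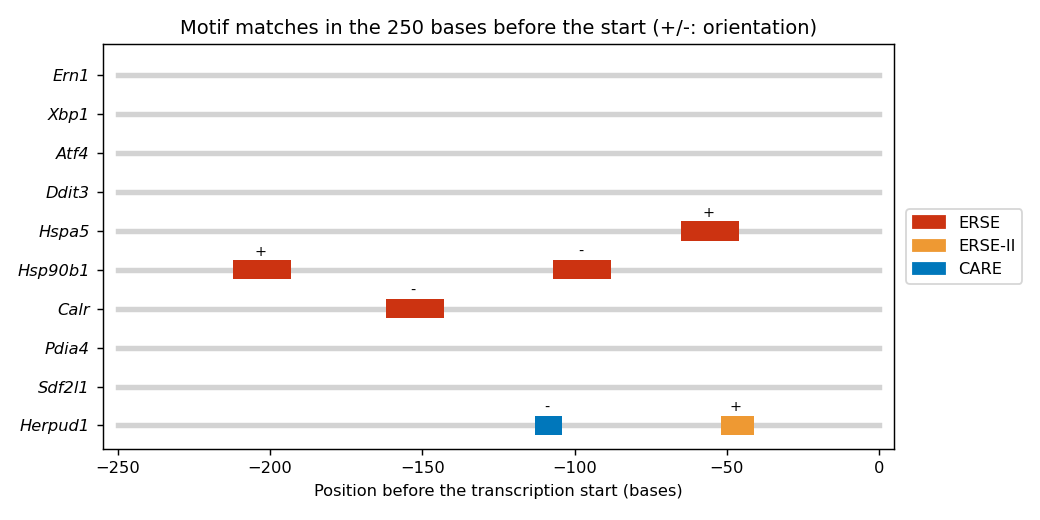
Motif matches in the 250 bases before the RefSeq start of each of the 10 genes. The horizontal axis is the position before the start in bases, each grey line is a promoter, boxes are ERSE, ERSE-II or CARE matches, and + or - gives the orientation to the gene. Matches lie in Hspa5, Hsp90b1, Calr and Herpud1, and the other promoters hold none of the letters searched.

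Herpud1 was the gene whose promoter held 2 kinds of motif, and its 250 bases on the plus strand are printed with both in capitals, the CARE match reading as its reverse complement.
Herpud1 promoter, chr8:94386179-94386428: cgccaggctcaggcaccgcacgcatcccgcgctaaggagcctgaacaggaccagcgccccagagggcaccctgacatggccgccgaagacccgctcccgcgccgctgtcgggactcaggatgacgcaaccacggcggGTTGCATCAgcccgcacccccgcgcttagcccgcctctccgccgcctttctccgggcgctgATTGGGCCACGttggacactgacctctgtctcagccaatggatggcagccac

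None of the 10 genes was called different between Abx and Con, where a call needed a change of over 2-fold and an adjusted p under 0.05 in limma, and 0.0574% of the 8718 genes tested were called (0.0459% higher and 0.0115% lower in Abx). The largest difference was in the sensor gene Ern1, which was near 0 in every Abx library and at 2.84 to 6.87 FPKM in Con. The chaperones Hspa5, Hsp90b1 and Calr differed between the groups by less than the spread between libraries, and Herpud1 was higher in each Abx library than in any Con library. In 8 of the 10 genes the groups overlapped, and the groups of 17.2% of all genes tested did not overlap. The fitted difference was positive for 2 genes and negative for 8, with a median of -0.17 on the log2(FPKM + 1) scale, beside -0.06 over all genes tested. An unadjusted p under 0.05 was found for 1 of the 10 genes (Ern1), and for 11.0% of all genes tested.

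**Figure D2:**
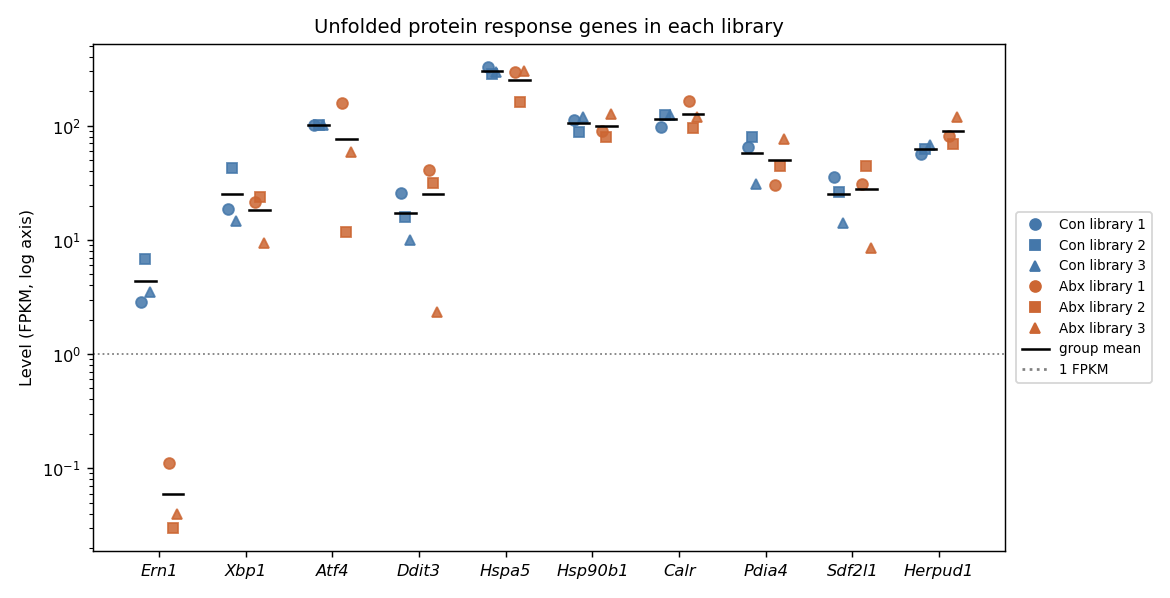
Level of each of the 10 genes in each library. The vertical axis is FPKM on a log axis, blue points are Con libraries, orange points are Abx libraries, the shape gives the library number, black bars are group means (n = 3) and the dotted line is 1 FPKM. Ern1 lies at 0.03 to 0.11 FPKM in Abx and above 1 FPKM in Con, while the groups of most other genes overlap.

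Hspa5 was the most abundant of the 10 genes in both groups. In Con, Hspa5 (mean 303 FPKM) was followed by Calr (114), Hsp90b1 (106) and Atf4 (102), then by Herpud1 (62.3), Pdia4 (58.3), Xbp1 (25.4), Sdf2l1 (25.3) and Ddit3 (17.1), and Ern1 was last (4.40). Of the neighbours in that order, only Hspa5 and Calr, Atf4 and Herpud1, and Ddit3 and Ern1 had ranges over libraries that did not overlap. In Abx the order was Hspa5 (253 FPKM), Calr (126), Hsp90b1 (99.0), Herpud1 (89.5), Atf4 (76.4), Pdia4 (50.1), Sdf2l1 (27.9), Ddit3 (25.1), Xbp1 (18.2) and Ern1 (0.06), and only Xbp1 and Ern1 had ranges that did not overlap. The order in Abx was thus less separated than that in Con, with no test of that difference.

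Together the 10 genes took 0.188%, 0.196% and 0.185% of the total FPKM in Con libraries 1 to 3, against 0.205%, 0.114% and 0.190% in those of Abx. The group means were 0.190% ± 0.00586 (SD, n = 3) in Con and 0.170% ± 0.0485 (SD, n = 3) in Abx, and did not differ beyond the spread (p = 0.9, exact two-sided permutation test, whose smallest possible p is 0.1). Abx library 2 was the lowest of the 6 libraries, and it was also the library in which 5 of the 10 genes had their lowest level. Hspa5 alone made up 28.7% to 38.8% of the sum.

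Ern1 (ENSMUSG00000020715, GRCm38 chr11:106394650-106487852, minus strand) encodes the sensor IRE1α. Con libraries 1 to 3 gave 2.84, 6.87 and 3.49 FPKM, and the Abx libraries gave 0.11, 0.03 and 0.04 FPKM. All Abx libraries were thus below all Con libraries, and Ern1 was the only one of the 10 genes under 1 FPKM anywhere. It passed the filter on low values (at least 1 FPKM in at least 3 libraries) through Con alone. The fitted difference was -2.28 on the log2(FPKM + 1) scale (SE 0.51, 95% interval -3.47 to -1.08, limma unadjusted p = 0.00245, adjusted p = 0.113), so the gene did not pass the adjusted threshold. The exact two-sided permutation test gave p = 0.1, the smallest it can give. With a pseudocount of 0.01 in place of 1 the difference was -6.04, so its size depends on how values near 0 are treated. Fewer ILC2s that express a gene and less of its RNA per cell cannot be told apart in libraries of 1000 cells, here and for the genes that follow.

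Values near 0 in every Abx library were not particular to Ern1 among genes of its level. Of 744 tested genes that lay between 2 and 8 FPKM in every Con library, 37 (4.97%) were at 0.2 FPKM or less in every Abx library, a count made after the values of Ern1 were seen. Of 309 tested genes that lay in that range in every Abx library, 2 (0.647%) were at 0.2 FPKM or less in every Con library. The number of genes at 1 FPKM or more was 8574 to 9203 in the Con libraries and 7074 to 8193 in the Abx libraries, so fewer genes reached 1 FPKM in Abx, and the part of this in the level of Ern1 was not tested.

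The other sensors described above, Atf6 and Eif2ak3, were also low, with levels that differed between libraries of a group. Atf6 measured 0.06, 4.87 and 5.38 FPKM across the Con libraries, against 2.34, 0.08 and 0.07 FPKM across Abx. Eif2ak3, which encodes PERK, was found at 0.37, 5.62 and 1.50 FPKM in Con libraries 1 to 3 and at 0.02, 0.01 and 2.50 in those of Abx. Both had Abx libraries under 0.1 FPKM and 1 Con library under 1 FPKM, and ranges that overlapped, with differences of -1.12 for Atf6 (limma adjusted p = 0.708) and -0.88 for Eif2ak3 (limma adjusted p = 0.741). Atf6 and Eif2ak3 were named beside Ern1 as its fellow sensors after their values were seen. Atf6b, a relative of Atf6, was at 31.87, 1.49 and 15.77 FPKM in Con libraries 1 to 3. In those of Abx it was at 18.57, 7.78 and 14.48 FPKM (difference 0.32, limma adjusted p = 0.934).

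Xbp1 (ENSMUSG00000020484, chr11:5520659-5525893, plus strand) encodes the factor whose mRNA is the substrate of IRE1α. It measured 18.83, 42.73 and 14.55 FPKM across the Con libraries, against 21.50, 23.55 and 9.46 FPKM across Abx. Con library 2 was the highest and Abx library 3 the lowest, and the other libraries lay close together across groups. The difference was -0.41 (SE 0.57, 95% interval -1.74 to 0.93, limma adjusted p = 0.853), and it was 0.031 without Con library 2. Across the 6 libraries, the tested genes outside the 10 with profiles closest to that of Xbp1 were Ccdc167, Psenen and Med28, at Euclidean distances of 0.41, 0.42 and 0.48 between profiles of log2(FPKM + 1), each centred on its own mean.

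Atf4 (ENSMUSG00000042406, chr15:80255184-80257541, plus strand) encodes the factor that acts after PERK and the other eIF2α kinases. It was found at 102.08, 101.88 and 102.26 FPKM in Con libraries 1 to 3 and at 158.07, 11.65 and 59.35 in those of Abx. The Con libraries were thus almost equal, while the Abx libraries lay on both sides of them. The means were 102 ± 0.19 and 76.4 ± 74.7 FPKM (SD, n = 3 each), and the difference was -1.06 (SE 0.81, 95% interval -2.93 to 0.82, limma adjusted p = 0.708). Without Abx library 2 the difference was -0.07. The Con range of Atf4 was 0.372% of its mean, and of 1231 tested genes with a Con mean of at least 50 FPKM, 2 were as tight, Atf4 included, against a median of 35.2%. That count was made after the Con values of Atf4 were seen.

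Ddit3 (ENSMUSG00000025408, chr10:127290774-127296288, plus strand) encodes CHOP, a factor that ATF4 turns on. It measured 25.54, 15.73 and 9.96 FPKM across the Con libraries, against 41.39, 31.67 and 2.35 FPKM across Abx. The Abx libraries held both the highest and the lowest levels, so the mean FPKM was higher in Abx while the mean on the log2 scale was not. The difference was -0.02 (SE 0.98, 95% interval -2.30 to 2.25, limma adjusted p = 0.996), and without Abx library 3 it was 1.13 (limma adjusted p = 0.388). The second entry named Ddit3 (ENSMUSG00000116429) lay within the first and stayed at 0.25 FPKM or less.

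Ddit3 shares 68 bases with Mars1 on the opposite strand, and whether the library kit kept strand is not stated, so reads there cannot be told apart. Mars1, a tRNA charging enzyme gene, was found at 16.48, 15.79 and 12.87 FPKM in Con libraries 1 to 3 and at 53.69, 6.97 and 0.02 in those of Abx. Gm4189, which shares 15 bases with the other end of Ddit3 and is also on the opposite strand, was at 3.64 FPKM in Con library 1, listed at 0 in Con libraries 2 and 3, and at 36.17, 6.26 and 0 FPKM in Abx. Ddit3 and Mars1 were thus both highest in Abx library 1 and lowest in Abx library 3, and Gm4189 was highest in Abx library 1.

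**Figure D3:**
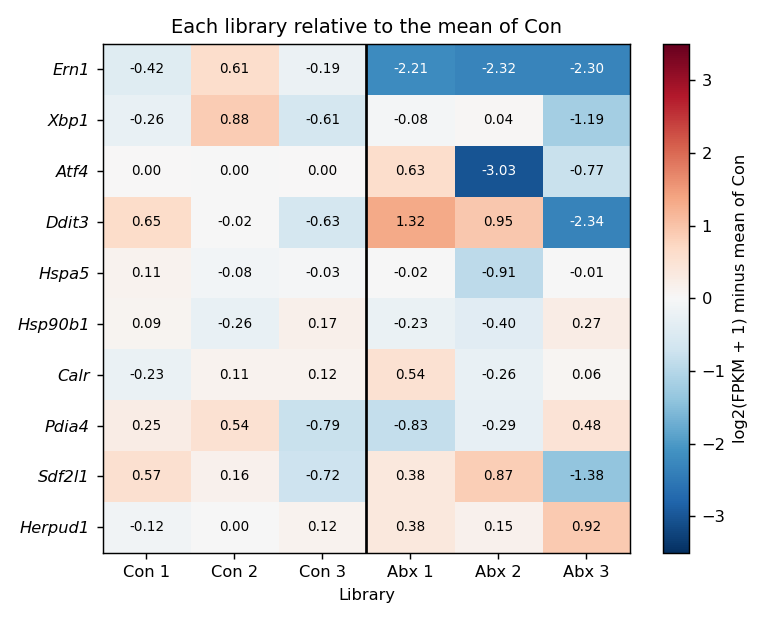
Each library's log2(FPKM + 1) minus the mean of the Con libraries, for the 10 genes (vertical axis) in the 6 libraries (horizontal axis). Red is above and blue below the Con mean, and the number is printed in each cell. Ern1 is blue in all Abx libraries, Atf4 is lowest in Abx 2, and Ddit3, Sdf2l1 and Xbp1 are lowest in Abx 3.

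Hspa5 (ENSMUSG00000026864, chr2:34771970-34777547, plus strand) encodes BiP, the HSP70 chaperone of the ER that also holds the sensors inactive. It measured 327.29, 285.38 and 296.18 FPKM across the Con libraries, against 298.63, 160.30 and 300.50 FPKM across Abx. Only Abx library 2 lay outside the Con range. The means were 303 ± 21.8 and 253 ± 80.4 FPKM (SD, n = 3 each), and the difference was -0.31 (SE 0.28, 95% interval -0.97 to 0.34, limma adjusted p = 0.751). Without Abx library 2 it was -0.01. The tested genes outside the 10 with profiles closest to that of Hspa5 over the 6 libraries were Gm2573, Polr2a and Mtarc2, at Euclidean distances of 0.12, 0.22 and 0.29.

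Hsp90b1 (ENSMUSG00000020048, chr10:86690209-86705509, minus strand) encodes GRP94, the HSP90 chaperone of the ER. It was found at 112.32, 88.08 and 118.29 FPKM in Con libraries 1 to 3 and at 89.91, 79.68 and 127.30 in those of Abx. The Abx range enclosed that of Con, and the difference was -0.12 (SE 0.28, 95% interval -0.76 to 0.52, limma adjusted p = 0.908). A microRNA entry inside the gene, Gm25745, spans 133 bases of the same strand and was listed at 130 to 273 FPKM, so reads of Hsp90b1 may have been divided between the entries.

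Calr (ENSMUSG00000003814, chr8:84841850-84846934, minus strand) encodes calreticulin, a chaperone for proteins with sugar chains that also stores calcium. It measured 96.74, 123.09 and 123.32 FPKM across the Con libraries, against 165.22, 94.88 and 118.40 FPKM across Abx. Abx held the highest and the lowest library. The difference was 0.11 (SE 0.28, 95% interval -0.53 to 0.76, limma adjusted p = 0.913), and its sign turned without Abx library 1 (-0.10), without Con library 1 (-0.0033) and with quantile normalization (-0.068). The processed pseudogene Calr-ps was listed at 0 in all 6 libraries. For Hspa5, Hsp90b1 and Calr the whole interval lay within a change of 2-fold either way, and for 7 of the 10 genes it did not.

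Pdia4 (ENSMUSG00000025823, chr6:47796141-47813430, minus strand) encodes a disulfide isomerase of the ER. It was found at 64.59, 79.21 and 31.03 FPKM in Con libraries 1 to 3 and at 30.09, 44.22 and 75.94 in those of Abx. Each group spanned nearly the same range, and the difference was -0.21 (SE 0.48, 95% interval -1.33 to 0.90, limma adjusted p = 0.907). Sdf2l1 (ENSMUSG00000022769, chr16:17130138-17132383, minus strand) encodes a small ER protein that works with the BiP co-chaperones. It measured 35.55, 26.47 and 13.93 FPKM across the Con libraries, against 30.98, 44.11 and 8.50 FPKM across Abx. The lowest library of each group was its library 3. Its mean FPKM was higher in Abx, as for Ddit3, while on the log2 scale the difference was -0.04 (SE 0.67, 95% interval -1.59 to 1.51, limma adjusted p = 0.988).

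Herpud1 (ENSMUSG00000031770, chr8:94386438-94395377, plus strand) encodes HERP, a membrane protein of the complex that sends misfolded proteins out of the ER for degradation, and its promoter is the one with ERSE-II and CARE shown above. It was found at 57.13, 62.06 and 67.76 FPKM in Con libraries 1 to 3 and at 81.15, 69.12 and 118.27 in those of Abx. Every Abx library was above every Con library, the closest pair being Abx library 2 and Con library 3. The means were 62.3 ± 5.32 and 89.5 ± 25.6 FPKM (SD, n = 3 each). The difference of 0.48 did not pass the threshold (SE 0.29, 95% interval -0.19 to 1.16, limma adjusted p = 0.629), and the exact two-sided permutation test gave p = 0.1, the smallest it can give. Among all genes tested, 8.49% had every Abx library above every Con library and 8.73% had every Abx library below.

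**Figure D4:**
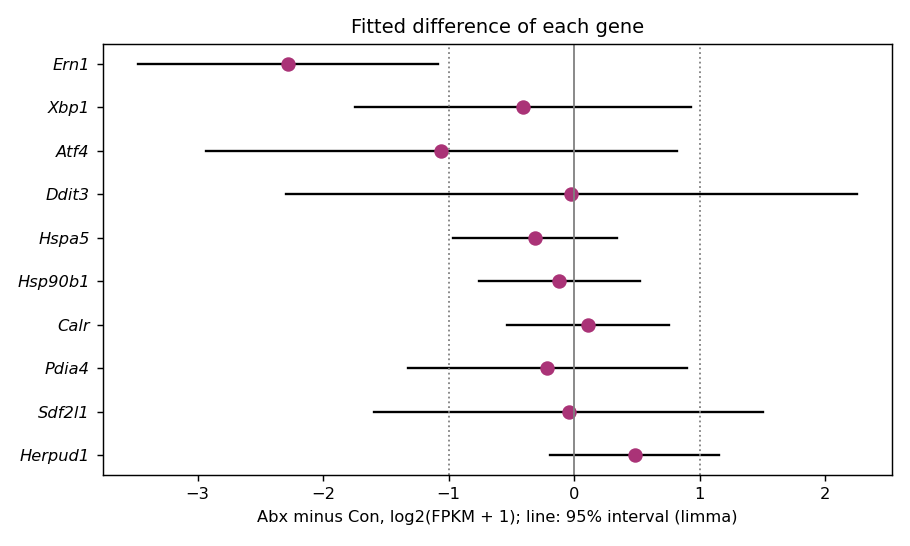
Fitted difference of each of the 10 genes between groups. The horizontal axis is Abx minus Con on the log2(FPKM + 1) scale (n = 3 libraries per group), points are limma estimates, lines are 95% intervals and dotted lines mark a change of 2-fold. Only the interval of Ern1 does not reach 0, and only those of Hspa5, Hsp90b1 and Calr lie between the dotted lines.

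The spread between libraries was larger in Abx than in Con for 7 of the 10 genes (70.0%), and for 70.3% of all genes tested. The median SD on the log2 scale was 0.38 in Con and 0.59 in Abx for the 10 genes, beside 0.55 and 0.89 for all genes tested. Among the Abx libraries, 6 of the 10 genes were lowest in library 2.

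Among other sensors and regulators, 18 genes in all, 13 could be tested and 0 were called. The difference was positive for 5 and negative for 8, with a median of -0.80, which was -0.22 over all 18 genes when the filter was left out. An unadjusted limma p under 0.05 with a lower level in Abx was found for 4 of the 13 (6.25% of all genes tested). Of these, Eif2ak1 and Creb3l2 met the filter through their Con libraries, so the count is not read against the share of all genes. Eif2ak1, which encodes the heme-regulated eIF2α kinase, measured 5.23, 8.95 and 15.84 FPKM across the Con libraries, against 0.14, 0.04 and 0.10 FPKM across Abx. Like Ern1 it was near 0 in every Abx library and passed the filter through Con alone, and its difference was -3.21 (SE 0.65, limma adjusted p = 0.0967). Atf3, a stress-induced factor, was found at 210.17, 341.07 and 487.77 FPKM in Con libraries 1 to 3 and at 66.28, 89.82 and 117.91 in those of Abx.

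The groups of Atf3 were thus far apart, and its difference was -1.87 (SE 0.36, limma adjusted p = 0.0911). Creb3l2, a membrane-bound factor related to ATF6, was at 1.76 to 6.05 FPKM in Con and 0.08 to 1.17 FPKM in Abx, and differed by -1.66 (limma adjusted p = 0.330). Ppp1r15a encodes GADD34, the subunit that directs a phosphatase to eIF2α, and it was at 781 to 1461 FPKM in Con and 486 to 823 FPKM in Abx, which overlapped (difference -0.80, limma adjusted p = 0.335). Its relative Ppp1r15b measured 0.44, 0.07 and 9.28 FPKM across the Con libraries, against 9.73, 9.43 and 15.25 FPKM across Abx, a difference of 2.28 that rested on Con libraries near 0 (limma adjusted p = 0.458). Eif2s1, which encodes eIF2α itself, differed by 0.62 (limma adjusted p = 0.605).

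Among 24 other ER chaperones and folding enzymes, 22 could be tested, 5 with a positive and 17 with a negative difference, and 0 were called. Creld2, an ER stress-induced gene whose promoter also holds ERSE, was found at 66.21, 17.53 and 29.75 FPKM in Con libraries 1 to 3 and at 154.10, 54.42 and 94.81 in those of Abx. Con library 1 lay above Abx library 2, so the groups overlapped, and the difference was 1.48 (SE 0.56, limma unadjusted p = 0.0316, adjusted p = 0.369). The lowest differences were -2.31 for Fkbp2, a prolyl isomerase gene at 0.05 FPKM in Abx library 2 (-0.59 without that library), and -1.65 for Canx, which encodes calnexin (limma adjusted p = 0.591 and 0.472). Dnajc3, a BiP co-chaperone gene, had the second highest difference, 0.34 (limma adjusted p = 0.854). The median over the 22 genes was -0.53, beside -0.06 over all genes tested.

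Of 18 genes of ER-associated degradation, 16 were tested, with 5 positive and 11 negative differences, a median of -0.41 that turned to 0.0062 without Abx library 2, and 0 called. Edem1, which takes misfolded proteins with sugar chains to degradation, measured 9.10, 15.26 and 6.36 FPKM across the Con libraries, against 29.33, 19.79 and 32.02 FPKM across Abx. All Abx libraries were above all Con libraries, as for Herpud1, and the difference was 1.37 (SE 0.50, limma unadjusted p = 0.0269, adjusted p = 0.334). Its relative Edem2 differed by -1.02 (limma adjusted p = 0.564), and by -0.64 without Con library 2. The lectin gene Os9 had a difference of -2.17 (limma adjusted p = 0.543), with Con libraries at 23.29 to 53.67 FPKM and Abx libraries at 26.08, 10.29 and 0.16 FPKM, and was -0.87 without Abx library 3. Nploc4, which encodes a cofactor of the ATPase that pulls proteins from the ER, had a difference of 1.17 (limma adjusted p = 0.735) that lay between 0.63 without Abx library 2 and 2.08 without Abx library 1. Members of the same degradation route thus had differences of both signs.

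Of 26 genes of entry into the ER and retrieval to it, 25 were tested, with 10 positive and 15 negative differences, a median of -0.16 that was -0.0041 without Abx library 1, 0 called and 0 at an unadjusted limma p under 0.05 (11.0% of all genes tested). The lowest were Srprb, a subunit of the receptor for the signal recognition particle (-1.83), and Ssr3, a subunit of the translocon-associated complex (-1.69), each with an Abx library under 1 FPKM. Without that library, Abx 3 for Srprb and Abx 1 for Ssr3, the differences were -0.71 and -0.36. The highest were Srp19 (0.74) and Tram1 (0.41), both also parts of the entry route.

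Among 22 amino acid and stress genes under ATF4, 16 were tested, with 9 positive and 7 negative differences and a median of 0.02, and 0 were called. Not tested were Asns, at 0.01 to 0.18 FPKM in Con and 15.46, 0.10 and 37.00 in Abx, and Atf5, at 0.03 to 0.17 FPKM in Con and 9.91, 0.67 and 0.13 in Abx. Slc7a11 and Vldlr, also untested, stayed under 1 FPKM, and Nupr1 and Stc2 reached 1 FPKM in Con library 3 alone. The tested genes at an unadjusted limma p under 0.05 went both ways. Shmt2, an enzyme gene of serine and glycine metabolism in mitochondria, was found at 53.16, 37.95 and 49.63 FPKM in Con libraries 1 to 3 and at 98.93, 77.58 and 128.72 in those of Abx, with no overlap and a difference of 1.08 (limma adjusted p = 0.182). Phgdh, which begins serine synthesis, also had every Abx library above Con (difference 1.29, limma adjusted p = 0.326). The amino acid transporter subunits Slc3a2 and Slc7a5, which pair in the membrane, had every Abx library below Con.

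Slc3a2 measured 284.53, 303.64 and 281.19 FPKM across the Con libraries, against 184.68, 181.41 and 210.79 FPKM across Abx, a difference of -0.59 (limma adjusted p = 0.242). Slc7a5 differed by -1.89 (limma adjusted p = 0.286) and the tRNA charging enzyme gene Sars by -0.93 (limma adjusted p = 0.660). The median of the ATF4 list had no stable sign, lying between -0.27 and 0.30 over the other settings tried.

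**Figure D5:**
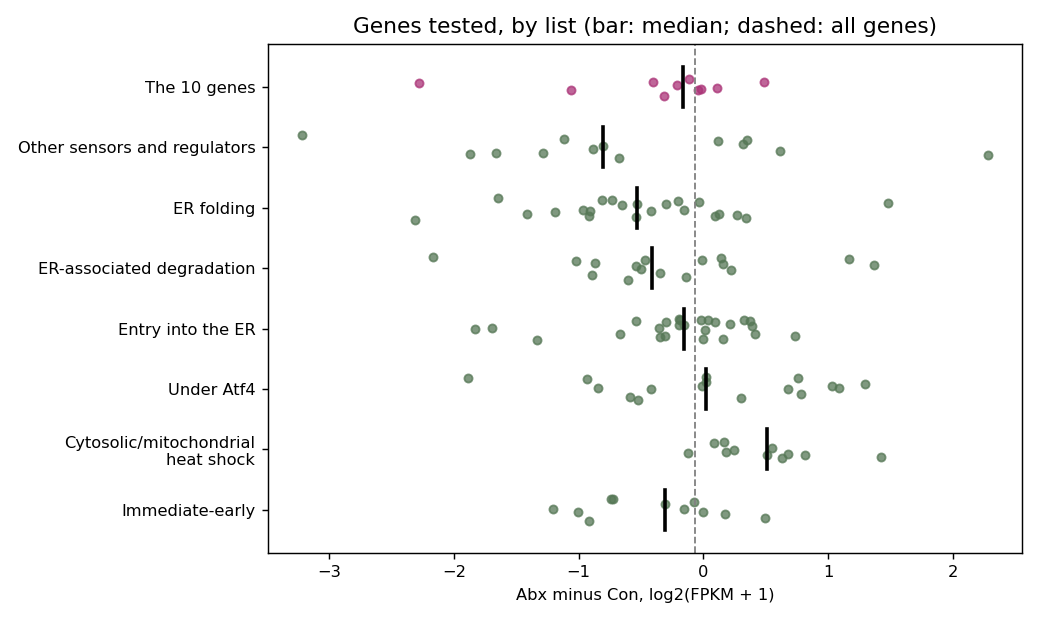
Fitted differences of the genes tested in each list. The horizontal axis is Abx minus Con on the log2(FPKM + 1) scale, each point is a gene, black bars are list medians and the dashed line is the median of all genes tested (-0.06). The list medians run from -0.80 for the other sensors and regulators (-0.22 without the filter, when ER folding is lowest at -0.47) to 0.51 for the cytosolic and mitochondrial heat shock chaperones, and every list has genes on both sides of 0.

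The chaperones of the cytosol and mitochondria had 10 positive and 1 negative difference among 11 tested, with a median of 0.51. The immediate-early genes had 2 positive and 9 negative among 11, with a median of -0.31 that turned to 0.074 without Abx library 2. No gene of either list was called, and 3 of 11 in each had an unadjusted limma p under 0.05, higher in Abx for the chaperones and lower for the immediate-early genes. Beside these, 4.74% of all genes tested had an unadjusted p under 0.05 and were higher in Abx, and 6.25% had one and were lower. The chaperones at an unadjusted p under 0.05 were Hspd1 (1.42, limma adjusted p = 0.127) and its partner Hspe1 (0.81, limma adjusted p = 0.440), which fold proteins in mitochondria, and the cytosolic Hsp90aa1 (0.68, limma adjusted p = 0.438), whereas Hspa1b (-0.13) and Hsf1 (0.083) had the lowest differences. The immediate-early genes were Nr4a1 (-1.21, limma adjusted p = 0.113), Ier3 (-1.01, limma adjusted p = 0.127) and Junb (-0.73, limma adjusted p = 0.226), and the highest differences were those of Jun (0.49) and Jund (0.17).

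ERSE stood in the promoters of 35 gene symbols, of which 12 were tested. Their differences were positive for 5 and negative for 7, with a median of -0.22. Calr, Hspa5 and Hsp90b1 are among them, and so are Canx, Creld2, Dnajc3, Pdia6 and Ero1lb of the folding list and Syvn1 of the degradation list. Differences were 0.34 for Dnajc3, 0.12 for Pdia6, -1.19 for Ero1lb and -0.47 for Syvn1. The promoter letters thus went with differences of both signs, Creld2 at 1.48 and Canx at -1.65.

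The sum over 14 ILC2 markers was 2862 to 3271 FPKM in Con and 2176 to 2755 FPKM in Abx, and 13 of the 14 passed the filter. Il1rl1, which encodes the IL-33 receptor, did not, with 0.06, 0.89 and 2.94 FPKM in Con libraries 1 to 3 and 0.01 to 0.03 FPKM in those of Abx. Areg (657 to 783 FPKM in Con, 197 to 393 in Abx), Icos (240.5 to 289 and 82.4 to 120) and Arg1 (577 to 675 and 377 to 525) had every Abx library below Con, each at an unadjusted limma p under 0.05 but not called (adjusted p = 0.0911, 0.0911 and 0.330), and their part in the levels of the 10 genes was not tested. Of the 13 ILC2 markers tested, 7 had a positive and 6 a negative difference, with a median of 0.03. Ptprc (18.6 to 22.9 FPKM in Con, 25.4 to 45.0 in Abx) had every Abx library above Con. The sum over 10 T cell markers was 1233 to 1411 FPKM in Con and 2543 to 2899 FPKM in Abx. That over 9 B cell markers was 542 to 700 FPKM in Con and 1178 to 1428 FPKM in Abx. The sort was set to exclude both cell types, and the part of these markers in the levels of the 10 genes was not tested. The largest T cell markers were Trbc2 (874 to 958 FPKM in Con, 1639 to 1803 in Abx) and Trbc1 (208 to 387 and 633 to 778). Of the 7 T cell markers tested, 5 had every Abx library above Con and 0 had every Abx library below (8.49% and 8.73% of all genes tested). Besides Trbc2 and Trbc1, those above were Cd3g (93.25 to 124 and 140 to 196), Cd3d (4.46 to 8.32 and 37.15 to 108) and Cd8b1 (0 to 10.17 and 27.06 to 52.18). Cd4 was listed at 0 in all but Abx library 2, and Cd8a was at 0.04 FPKM or less in all but Con library 1. Of the 7 B cell markers tested, 4 had every Abx library above Con and 1 had every Abx library below (8.49% and 8.73% of all genes tested). Those above were Ighm (109 to 159 FPKM in Con, 358 to 429 in Abx), Igkc (127 to 218 and 261 to 365), Cd74 (160 to 226 and 321 to 525) and Ms4a1 (3.98 to 5.39 and 10.81 to 19.77). The marker below was Cd79b (69.5 to 117 and 31.0 to 57.4), and Ebf1 stayed at 0.09 FPKM or less. Plasma cells, which are rich in ER chaperones, were represented by a marker sum of 4.77 to 16.6 FPKM in Con and 8.70 to 21.3 FPKM in Abx, and their markers Jchain, Tnfrsf17, Ighg1 and Igha were at 0 in all 6 libraries. Mast cell and basophil markers summed to 328 to 472 FPKM in Con and 185 to 295 FPKM in Abx. The sums were 131 to 366 and 176 to 381 FPKM for myeloid markers, 42.7 to 1166 and 55.8 to 142 FPKM for lung epithelial markers, and 5.64 to 11.1 and 6.48 to 21.7 FPKM for endothelial and fibroblast markers. Xist was at 3.78 to 5.09 FPKM in Con and listed at 0 in Abx. Y-linked Eif2s3y was at 0.03 to 0.86 FPKM in Con and 11.85 to 24.37 FPKM in Abx. Treatment and sex of the cells thus cannot be told apart for any gene described here.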

How the data were processed

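The members and lists were chosen with earlier results of these data known. The deposited values are FPKM per gene, which the authors made from Smart-seq v4 libraries with Cutadapt, HISAT2 and StringTie. The methods name a human Ensembl annotation, but the identifiers are mouse, and 55134 of 55394 are in GENCODE M21 (GRCm38), the source of the gene coordinates here. The submitters' processing notes list Bowtie 0.12.2, mm8 and mm9. FPKM keep no counts, so the read depth is unknown, no counting interval is given, and the DESeq2 test of the methods was not run. Total FPKM was 420941 to 449523 in Con and 431613 to 489262 in Abx.

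The groups, 3 libraries each, were taken from the labels and compared with limma 3.58.1 in R 4.3.3 (lmFit and eBayes with a trend, two-sided) on log2(FPKM + 1), over the 8718 genes that reached 1 FPKM in 3 or more of the 6 libraries, with Benjamini-Hochberg adjustment over all of them. A fold change is therefore on the log2(FPKM + 1) scale, which understates changes of low genes. A gene was called past a 2-fold change with adjusted p under 0.05, which the authors' methods also used. The script was tested on simulated data. Lists were described by counts and medians, with no list test. Named from each list were the 2 highest and 2 lowest differences and every gene with an unadjusted p under 0.05, and, for Hspa5 and Xbp1, the 3 genes with the closest profiles. Alternatives were other pseudocounts (0.1 and 0.01), scalings, filters and variance settings, a replicate block, and each library left out in turn. Promoters were read from RefSeq (GRCm38.p6), which matched all 10 genes.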

Additional observations from a re-analysis of the deposited data

How the results depend on the processing

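None of the 10 genes was called under any of the 16 other settings. Over the settings that gave a value, 145 of 159 values of single genes kept their sign. Ern1, Atf4, Hspa5 and Herpud1 kept theirs in each, with ranges of -6.04 to -1.97 (adjusted p 0.0926 to 0.642), -1.90 to -0.07, -0.46 to -0.01 and 0.26 to 0.65. The sign turned for Calr with quantile normalization (-0.068) and, when libraries were left out, the range was -0.10 to 0.30 for Calr, -0.70 to 1.13 for Ddit3, -0.31 to 0.022 for Hsp90b1, -0.61 to 0.095 for Pdia4, -0.50 to 0.62 for Sdf2l1 and -0.71 to 0.031 for Xbp1. Of 556 values of 35 other genes named from the lists, 552 kept their sign and 0 were called, and those that turned belong to Hspa1b (-0.87 to 0.67), Hsf1 (-0.28 to 0.38) and Jund (-0.088 to 0.34), with libraries left out. With array weights Ddit3 was at 0.040 and Sdf2l1 at 0.061. Ern1 could not be tested with a mean of at least 5 FPKM, which it does not reach. The median of the 10 genes lay between -0.37 and -0.00051.

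Over all genes, 5 were called. The count was 0 with a pseudocount of 0.1 or 0.01, with median centring and with no filter, 3 with rescaling of each library to the same total and 0 to 2 when a library was left out, but 7 with quantile normalization, with the stricter filter and with array weights, while 667 to 1279 genes had an unadjusted p under 0.05 against 958. Rescaling and the pseudocounts of 0.1 and 0.01 moved the median of all genes from -0.06 to -0.18, -0.15 and -0.17. The median of the ATF4 list was -0.22 and -0.27 with those pseudocounts, 0.15 with quantile normalization, -0.13 with rescaling and 0.30 with the stricter filter. When a library was left out, it lay between -0.13 and 0.18, that of the sensors and regulators between -1.07 and -0.58 (-0.22 with no filter), ER entry -0.29 to -0.0041, the ER folding list between -0.61 and -0.29, degradation -0.49 to 0.0062, heat shock 0.12 to 0.65 and immediate-early -0.81 to 0.074. The cause was not tested.

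Replicate numbers 1 to 3 occur in both groups. Deviations of same-numbered libraries from their group means correlated at -0.020, -0.029 and 0.0097, so the numbers give no pairing, and with the replicate block 0 genes were called and 858 had an unadjusted p under 0.05. With 3 libraries a group and wide intervals for 7 of the 10 genes, changes of 2-fold in these genes could go unseen.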
